A study of Mus musculus with 9 samples.

Results

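The adrenergic receptors examined here are the 7 genes Adra1a, Adra1b, Adra1d, Adra2a, Adra2b, Adra2c and Adrb1, identified in the files by gene symbol. They are 7 of 24532 genes measured by RNA sequencing in the medial prefrontal cortex (mPFC) of 9 mice, and all 7 were listed for every mouse. The remaining beta subtypes were not analysed here. The mice were C57BL/6, with 3 wild-type controls (CT), 3 wild-type mice exposed to chronic restraint stress (WT_ST) and 3 stressed Fkbp5-/- mice (KO_ST). Restraint lasted 6 h a day for 3 weeks, and food and water were withheld from CT mice during the same hours. The labels give an age of 11 weeks, the study's methods 8 weeks, male sex and C57BL/6J as the strain. The Fkbp5-/- line was backcrossed to C57BL/6J for 10 generations, and no unstressed Fkbp5-/- group was included. The comparison of KO_ST with CT therefore combines stress and genotype, which cannot be told apart in it.

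Noradrenaline reaches the prefrontal cortex from neurons of the locus coeruleus, which fire more during stress. Alpha1 receptors couple to Gq and phospholipase C, alpha2 receptors to Gi, which lowers cyclic AMP, and beta receptors to Gs, which raises it. In prefrontal pyramidal neurons, alpha2A receptors are known for strengthening working memory at moderate noradrenaline, and alpha1 and beta1 receptors for being engaged when its release is high. From what is known of rodent cortex, Adra1b, Adra1d and Adra2c are mainly transcripts of neurons. Adra1a is known from subsets of inhibitory neurons and from oligodendrocyte precursor cells, among other cells. Adra2a and Adrb1 are known from both neurons and astrocytes. Adra2b is known mainly from the thalamus and has little transcript in cortex. These sources are background: RNA of whole tissue does not assign a transcript to a cell, and in such RNA fewer cells of a type and less RNA per cell cannot be told apart.

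Library depth, as reads assigned to genes, ran from 43778471 to 61150128. Fkbp5, the targeted gene, lay at an FPKM (fragments counted for a gene, scaled by transcript length and library size) of 6.46 to 7.61 in CT, 9.47 to 10.3 in WT_ST and 3.59 to 4.69 in KO_ST, so the 3 groups did not overlap. Fkbp5 transcript was lower but not absent in the mice labelled Fkbp5-/-, with 625 to 907 reads, a fold of 0.659 of CT and 0.486 of WT_ST in limma. Which part of the transcript these reads cover was not tested. The tissue carried markers of glutamatergic neurons and of astrocytes. Slc17a7, the vesicular transporter of glutamatergic neurons, was at 581 to 677, and Slc1a2, the glutamate transporter of astrocytes, at 204 to 256. Slc6a2, the noradrenaline transporter made in neurons of the locus coeruleus, was listed at 0 in 8 of 9 mice and had 3 reads in CT replicate 2. Dbh, which makes noradrenaline, reached at most 0.442.

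The receptors covered a wide range of levels on the FPKM scale, which corrects for transcript length. Adra1d was the most abundant of the 7 at 15.0 ± 1.71 (SD, n = 9 mice), followed by Adrb1 at 10.02 ± 0.938 and Adra1b at 7.45 ± 1.07. Adra2c averaged 4.87 ± 0.424, Adra2a 3.41 ± 0.281 and Adra1a 1.58 ± 0.424, and Adra2b was near the bottom at 0.0408 ± 0.0166. This order held within each of the 9 mice. Taken over mice, the ranges of Adra1d and Adrb1 overlapped, and so did those of Adrb1 and Adra1b, whereas every lower neighbour was separated from the next. Among 14370 genes with a mean of at least 30 reads per mouse, 66.3% had a lower mean FPKM than Adra1d and 18.01% a lower mean than Adra1a.

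Summed over subtypes, alpha1 receptors made up 54.6% ± 2.69 (SD, n = 3) of the FPKM of the 7 genes in CT, 57.8% ± 1.49 in WT_ST and 57.5% ± 1.59 in KO_ST. Alpha2 receptors made up 20.4% ± 2.63, 19.5% ± 0.941 and 19.2% ± 1.76 in the same order. Adrb1 alone made up 25.1% ± 0.929, 22.6% ± 1.33 and 23.3% ± 1.44. The sum itself was 41.0 ± 4.71, 43.3 ± 2.70 and 42.8 ± 1.499. The Adrb1 share was 24.1% to 26.0% in CT and 21.1% to 23.5% in WT_ST, without overlap, and 22.3% to 24.9% in KO_ST, which overlapped both. The alpha1 share, the alpha2 share and the sum overlapped between all groups. None of these was tested.

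**Figure D1:**
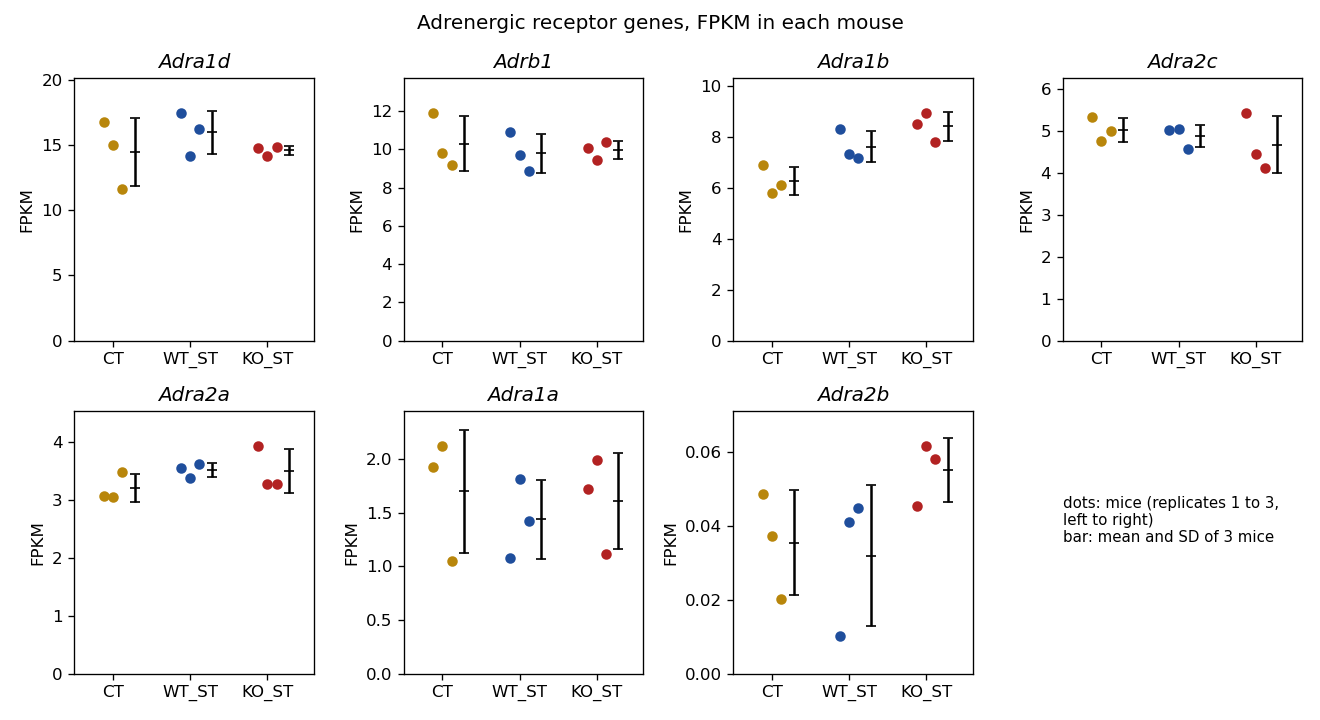
FPKM of the 7 receptor genes (y axis, from 0, a scale of its own in each panel) in CT, WT_ST and KO_ST, with 1 dot per mouse and a bar for the mean and SD of 3 mice. Adra1b is the panel in which all CT mice lie below all stressed mice, at most 6.89 against at least 7.20.

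Differences between groups were tested with limma's moderated test on quantile-normalized log2(FPKM + 1) for these 14370 genes. Following the study's criterion, a gene was called when its fold change exceeded 1.2 with p below 0.05 before adjustment. Of the receptors, 6 of 7 passed the filter, and Adra2b, with 2 to 12 reads per mouse, did not. This criterion called 2.47% of tested genes between CT and WT_ST (1.16% higher and 1.32% lower in WT_ST). It called 3.56% between CT and KO_ST (1.54% higher and 2.03% lower in KO_ST) and 2% between WT_ST and KO_ST (0.946% higher and 1.05% lower in KO_ST). At a Benjamini-Hochberg adjusted p under 0.05 the shares were 0.0348%, 0.0626% and 0.153%, which are 5, 9 and 22 genes in limma against 72, 113 and 76 in DESeq2. With the replicate number as a block in limma, 0, 2 and 4 genes passed. With 1 mouse left out the counts ran from 2 to 17, from 7 to 11 and from 11 to 22. Groups did not overlap for 14%, 15.8% and 11% of tested genes. An F test of all 3 groups gave an unadjusted p under 0.05 for 9.13% and an adjusted p under 0.05 for 0.111%.

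Of the 6 tested receptors, Adra1b was called in WT_ST against CT and in KO_ST against CT, and the other 5 were called in no comparison. No receptor was called between KO_ST and WT_ST. Adra1b was also the only 1 of the 6 with a p under 0.05 before adjustment in the F test (adjusted p = 0.349 in limma and 0.00823 in the 3-group test of DESeq2). No receptor reached an adjusted p under 0.05 in limma in any of these tests. With 1 of 6 called in each comparison with CT, the count is too small to set against the shares of all genes.

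Adra1b encodes the alpha1B receptor and lies on the minus strand of chromosome 11 of GRCm38, from 43774605 to 43901250. GENCODE M21 gives its coding transcripts 2 to 5 exons, and the authors' files list 3 RefSeq transcripts for it. Its FPKM was 6.89, 5.82 and 6.13 in CT replicates 1 to 3. In WT_ST it was 8.33, 7.36 and 7.20, and in KO_ST 8.50, 8.97 and 7.82. All 6 stressed mice were above all 3 controls, while WT_ST and KO_ST overlapped. Among all tested genes, 14% did not overlap between CT and WT_ST and 15.8% between CT and KO_ST. How many genes separated CT from both stressed groups at once was not counted. Between 982 and 1384 reads per mouse stood behind the FPKM of Adra1b.

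Group means of Adra1b were 6.28 ± 0.553 (SD, n = 3) in CT, 7.63 ± 0.613 in WT_ST and 8.43 ± 0.580 in KO_ST. The ratio of mean FPKM was 1.22 for WT_ST against CT and 1.34 for KO_ST against CT. On the quantile-normalized log2(FPKM + 1) scale, which understates folds of low genes, Adra1b was 0.26 higher in WT_ST than in CT (95% interval 0.0584 to 0.470, adjusted p = 0.634 in limma). This corresponds to a fold of 1.201, just inside the threshold of 1.2. In KO_ST it was 0.40 higher than in CT (95% interval 0.208 to 0.602, adjusted p = 0.399 in limma), a fold of 1.32. KO_ST and WT_ST differed by 0.14 (95% interval -0.0506 to 0.332, adjusted p = 0.906 in limma). An increase in KO_ST over WT_ST of up to 1.26-fold thus lies within the interval, and so does no change. With 1 mouse left out this difference ran from 0.093 to 0.21. The highest value came without WT_ST replicate 1, where p fell under 0.05 before adjustment and the fold stayed below 1.2.

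Ranked with its sign, so that genes with lower levels count as below it, the log2 difference of Adra1b was above that of 97.8% of the 14370 tested genes in WT_ST against CT and of 99.1% in KO_ST against CT. Both comparisons use the same CT libraries. In KO_ST against WT_ST its 0.14 lay within the range of -0.170 to 0.169 that held the middle 90% of all tested genes.

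The call in WT_ST rested on single mice and on the scaling. Without CT replicate 2, CT replicate 3 or WT_ST replicate 1, the log2 difference was 0.22, 0.24 and 0.20 and p no longer fell under 0.05, and without quantile normalization it was 0.25, a fold below 1.2. The call in KO_ST was kept in all 14 alternatives to the reported fit that were planned, with log2 differences of 0.36 to 0.47. Its adjusted p was 0.00954 in DESeq2 on read counts, where 113 genes passed, and 0.208 to 0.781 in the other 13.

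**Figure D2:**
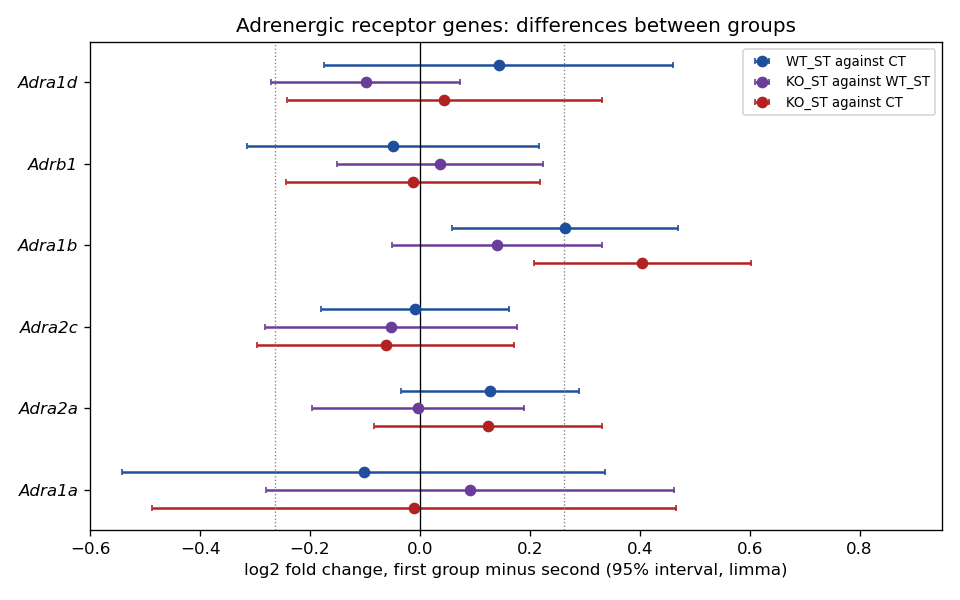
Log2 fold change on quantile-normalized log2(FPKM + 1) with its 95% interval from limma (x axis) for the 6 tested receptors (y axis) in each comparison; dotted lines mark a fold of 1.2 in either direction. Only for Adra1b do the intervals of both comparisons with CT lie wholly above 0, from 0.0584 to 0.470 and from 0.208 to 0.602.

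Adra1d, the alpha1D receptor (chromosome 2, 131545357 to 131562497), was at 16.7, 15.0 and 11.6 FPKM in CT, 17.5, 14.2 and 16.2 in WT_ST and 14.8, 14.2 and 14.8 in KO_ST. The CT mice alone spanned nearly the whole range, with replicate 3 the lowest of the 9. Its log2 difference was 0.14 in WT_ST against CT (95% interval -0.174 to 0.460) and 0.04 in KO_ST against CT (-0.242 to 0.331). Between KO_ST and WT_ST it was -0.10 (-0.271 to 0.0734). None of these passed the criterion (adjusted p = 0.801, 0.928 and 0.940 in limma). With 1 mouse left out, the difference between KO_ST and WT_ST ran from -0.17 to -0.037. The lowest value came without WT_ST replicate 2, where p in limma fell under 0.05 before adjustment and the change stayed below 1.2-fold.

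Adra1a, the alpha1A receptor (chromosome 14, 66635251 to 66771240), varied more between mice than any other tested receptor, with a coefficient of variation of 26.7% over the 9 mice against 8.24% to 14.3% for the other 5. It was at 1.93, 2.13 and 1.05 FPKM in CT, 1.08, 1.81 and 1.43 in WT_ST and 1.72, 1.99 and 1.12 in KO_ST. Each group held a mouse near 1.1 and a mouse above 1.8, so the 2.03-fold spread did not follow the groups. Reads per mouse ran from 187 to 450. The ratio of FPKM to reads scaled by library size also varied 1.17-fold between mice for this gene, against at most 1.01-fold for the other 5 tested receptors. Its 4 listed transcripts differ in length, and whether a shift among them accounts for this was not tested. Log2 differences were -0.10 in WT_ST against CT (95% interval -0.542 to 0.338), -0.01 in KO_ST against CT (-0.488 to 0.467) and 0.09 in KO_ST against WT_ST (-0.280 to 0.463) (adjusted p = 0.907, 0.993 and 0.967 in limma). As folds of CT, its interval in WT_ST ran from 0.687 to 1.26, on a scale that understates folds of low genes.

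Among the alpha2 receptors, Adra2a encodes alpha2A, the main autoreceptor of noradrenergic neurons and a postsynaptic receptor in prefrontal cortex (chromosome 19, 54045259 to 54048982). It was at 3.07, 3.06 and 3.49 FPKM in CT, 3.55, 3.38 and 3.63 in WT_ST and 3.94, 3.29 and 3.28 in KO_ST. The lowest 2 values of the 9 mice were CT replicates 1 and 2, but CT replicate 3 was above 1 WT_ST and 2 KO_ST mice. Log2 differences from CT were 0.13 in WT_ST (95% interval -0.0335 to 0.290) and 0.12 in KO_ST (-0.0838 to 0.332), and both missed the criterion (adjusted p = 0.679 and 0.680 in limma). KO_ST and WT_ST differed by -0.0040 (-0.197 to 0.189, adjusted p = 0.995 in limma).

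Adra2c encodes alpha2C, a presynaptic receptor that is also abundant in striatum (chromosome 5, 35278566 to 35281763). Its FPKM was 5.33, 4.76 and 5.02 in CT, 5.03, 5.04 and 4.57 in WT_ST and 5.45, 4.46 and 4.13 in KO_ST. KO_ST replicate 1 was the highest and KO_ST replicate 3 the lowest of all mice, so that group enclosed the other two. Log2 differences were -0.0089 in WT_ST against CT (95% interval -0.180 to 0.162), -0.06 in KO_ST against CT (-0.295 to 0.172) and -0.05 in KO_ST against WT_ST (-0.282 to 0.176) (adjusted p = 0.984, 0.865 and 0.969 in limma). Markers of striatal neurons, a neighbouring tissue, were called higher in WT_ST than in CT for 3 of 6 genes (Drd2, Adora2a and Rgs9). Of all tested genes, 1.16% were called higher in that comparison. The summed FPKM of the 6 markers was 55.6 to 68.9 in WT_ST, 46.1 to 55.0 in CT and 46.6 to 56.7 in KO_ST. What striatal tissue adds to the level of Adra2c was not tested. Drd2, the dopamine D2 receptor of striatal projection neurons, stayed between 0.640 and 2.28.

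Adra2b, the alpha2B receptor (chromosome 2, 127363179 to 127367221), was covered by 12, 9 and 4 reads in CT, 2, 8 and 9 in WT_ST and 8, 12 and 12 in KO_ST. Its FPKM was 0.0486, 0.0374 and 0.0203 in CT, 0.0101, 0.0410 and 0.0448 in WT_ST and 0.0453, 0.0618 and 0.0581 in KO_ST. All 3 KO_ST mice lay above all WT_ST mice, by as little as 0.0453 against 0.0448, and overlapped CT. In reads scaled by library size they overlapped WT_ST too, with WT_ST replicate 3 at 0.203 CPM (read counts scaled to a common library size) and KO_ST replicate 1 at 0.183 CPM. The ratio of FPKM to scaled reads varied 1.13-fold between mice for this gene. The ratio of mean FPKM was 1.72 for KO_ST against WT_ST and 1.55 for KO_ST against CT. At so low a level the scale of log2(FPKM + 1) cannot reach a fold of 1.2, so a fit without the filter on low expression could not have called Adra2b, and its result is not given.

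Adrb1, the beta1 receptor and a Gs-coupled receptor (chromosome 19, 56722117 to 56725150), is encoded by a single exon like Adra2c. It was at 11.9, 9.79 and 9.18 FPKM in CT, 10.9, 9.68 and 8.85 in WT_ST and 10.04, 9.45 and 10.4 in KO_ST. CT replicate 1 was the highest and WT_ST replicate 3 the lowest, and all 3 groups overlapped. Log2 differences were -0.05 in WT_ST against CT (95% interval -0.315 to 0.217), -0.01 in KO_ST against CT (-0.244 to 0.219) and 0.04 in KO_ST against WT_ST (-0.152 to 0.224) (adjusted p = 0.929, 0.982 and 0.972 in limma). As folds of CT, the intervals ran from 0.804 to 1.16 in WT_ST and from 0.845 to 1.16 in KO_ST.

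No pair of receptors passed a test of moving together from mouse to mouse. Over the 15 pairs of tested receptors and 9 mice, the highest Pearson r was 0.595, between Adra1d and Adrb1 (Spearman rho 0.536; exact permutation p = 0.0923 and 0.141, adjusted over the 15 pairs 0.880 and 1). Without the 2 mice farthest from the median of Adrb1, CT replicate 1 and WT_ST replicate 1, that r was 0.245, and within groups, on deviations from the group means, it was 0.735. Adra1a and Adra1b had an r of 0.0254 (rho -0.0333; exact permutation p = 0.945 and 0.948, adjusted 0.986 and 1).

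Genes with the most similar course over the 9 mice were looked up among the 14370, by Pearson r on the same values and as a description only. For Adra1b these were Tuba4a, an alpha-tubulin, with an r of 0.975, Wdr37 (0.960) and Uxs1 (0.956). Adra1a was closest to Akap10 (0.961), Gprin3 (0.951) and Ralgapa2 (0.942), and Adra1d to Phyhip (0.965), Zfp131 (0.960) and Fam131a (0.932). Adra2a was closest to Bhlhe41 (0.950), Lrrc10b (0.923) and 4931414P19Rik (0.908). For Adra2c and Adrb1 the closest genes were Flt3l (0.925), Ei24 (0.896) and Chic2 (0.888), and Aldh1a2 (0.917), Ppp1r21 (0.916) and Spats2l (0.904). An r above 0.9 was reached by 41 genes for Adra1b and 36 for Adra1a, but by 1 for Adra2c and 3 for Adrb1.

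To see which receptors went with neurons or glia across mice, each tested receptor was set against the mean level of 9 lists of cell type markers, 54 pairs in all. The exact permutation test treats the 9 mice as exchangeable whatever their group, so its p also takes in differences between groups. No p was computed within groups. Only Adra1b gave an adjusted p under 0.05, with 2 lists. Its r with the pan-neuronal list (Snap25, Syt1, Stmn2, Rbfox3, Tubb3 and Nefl) was 0.883 (exact permutation p = 0.000262, adjusted 0.0103). The rho for this pair was 0.833 (exact permutation p = 0.00827, adjusted 0.194), so it passed by r and not by rank. Without CT replicates 2 and 3, the 2 mice farthest from the median of the list, r was 0.810, and within groups, on deviations from the group means, it was 0.643. With the list of GABAergic neurons (Gad1, Gad2, Slc32a1, Pvalb, Sst and Vip), r was 0.861 and rho 0.833 (exact permutation p = 0.000383 and 0.00827, adjusted 0.0103 and 0.194). It was 0.783 without the same 2 mice and 0.583 within groups.

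The neuronal lists did not all behave alike: with glutamatergic neurons, r of Adra1b was 0.278 (rho 0.300; exact permutation p = 0.458 and 0.437, adjusted 0.740 and 0.859; 0.417 without 2 mice and 0.0516 within groups). With striatal neurons it was 0.0763 (rho 0.167; exact permutation p = 0.844 and 0.678, adjusted 0.943 and 0.963; 0.351 without 2 mice and -0.740 within groups). Of the 4 glial lists, 3 had a negative r with Adra1b, and none passed the adjusted threshold. It was -0.748 with microglia (rho -0.817; exact permutation p = 0.0146 and 0.0108, adjusted 0.153 and 0.194) and -0.765 with oligodendrocyte precursor cells (rho -0.683; exact permutation p = 0.0152 and 0.0503, adjusted 0.153 and 0.340). Without the 2 mice farthest from the list's median these were -0.828 and -0.237, and within groups -0.245 and -0.463. With astrocytes r was -0.563 and with oligodendrocytes 0.0470 (rho -0.517 and 0.0333; exact permutation p = 0.116 and 0.902, adjusted 0.481 and 0.955 for r; -0.797 and -0.113 without 2 mice; -0.642 and -0.401 within groups). With vessels, r of Adra1b was -0.688 (rho -0.717; exact permutation p = 0.0396 and 0.0369, adjusted 0.306 and 0.340; -0.893 without 2 mice and -0.343 within groups). For Adra2a the strongest r was with vessels, at -0.813 (rho -0.600; exact permutation p = 0.00748 and 0.0968, adjusted 0.135 and 0.436), and it was -0.418 without WT_ST replicate 3 and KO_ST replicate 1 and -0.747 within groups. Its highest positive r was with glutamatergic neurons, at 0.753 (rho 0.700; exact permutation p = 0.0170 and 0.0433, adjusted 0.153 and 0.340; 0.723 without 2 mice and 0.777 within groups). Adra1a, Adra1d, Adra2c and Adrb1 had no pair with a p under 0.05 by r. A relation across mice of bulk tissue does not say which cells make a transcript, so no subtype was assigned to neurons or glia from these libraries.

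**Figure D3:**
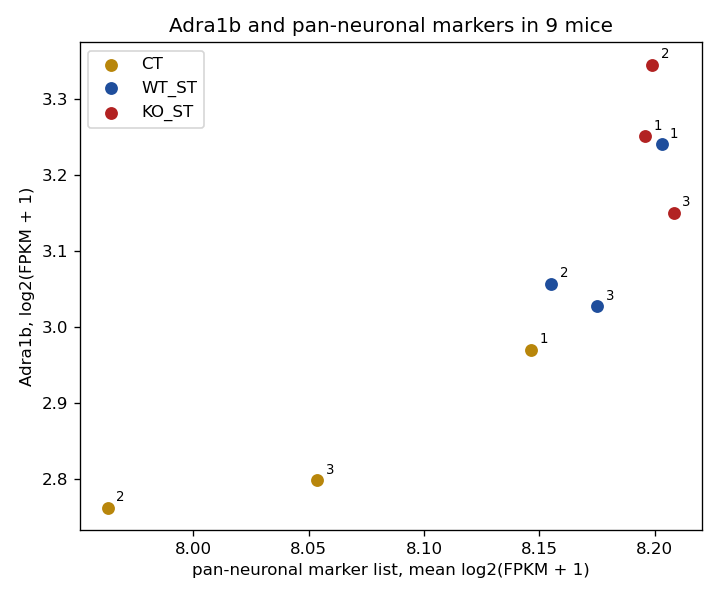
Adra1b (y axis) against the mean of 6 pan-neuronal markers (x axis), both as quantile-normalized log2(FPKM + 1), with 1 dot per mouse and its replicate number. The CT mice lie at the lower left and the stressed mice at the upper right (r = 0.883 over 9 mice).

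Of the marker lists, the pan-neuronal, microglial and oligodendrocyte precursor lists separated CT from both stressed groups in their summed FPKM, as Adra1b did. On the mean log2 level, the pan-neuronal and microglial lists still did so, while the precursor list overlapped, with CT replicate 1 at 2.552 and KO_ST replicate 3 at 2.561. Pan-neuronal markers summed to an FPKM of 2106 to 2537 in CT, 2599 to 2796 in WT_ST and 2678 to 2773 in KO_ST, so both stressed groups were above CT without overlap, although 0 of 6 markers was called in either comparison. Microglial markers summed to 117 to 151 in CT, 96.7 to 105 in WT_ST and 57.0 to 109 in KO_ST, and 5 of 6 were called lower in each stressed group. Against CT, 1.32% of all tested genes were called lower in WT_ST and 2.03% in KO_ST. Over the 56 tested markers, 25% were called in either direction in WT_ST and 17.9% in KO_ST, next to 2.47% and 3.56% of all tested genes. Markers of oligodendrocyte precursor cells summed to 27.8 to 36.3 in CT, 24.2 to 26.9 in WT_ST and 23.2 to 26.9 in KO_ST, with 2 and 1 of 5 called lower. Neurons of both transmitter classes overlapped CT in their summed markers, with glutamatergic markers at 731 to 794 in CT, 771 to 841 in WT_ST and 767 to 824 in KO_ST and GABAergic markers at 391 to 484, 429 to 463 and 460 to 478. On the mean log2 level, which weights each marker equally and was used for the correlations, GABAergic markers were at 5.27 to 5.51 in CT, 5.51 to 5.60 in WT_ST, which overlapped CT, and 5.58 to 5.62 in KO_ST, which did not. Of these markers, 1 was called, Pvalb, higher in KO_ST than in CT. Vessel markers summed to 106 to 111, 94.2 to 107 and 85.1 to 113, with 2 of 7 called lower in each stressed group. Of these 7, 2 had a log2 difference above 0 in WT_ST against CT and 1 in KO_ST against CT, with 0 called higher. Oligodendrocyte markers summed to 212 to 419, 258 to 384 and 271 to 321, with 0 of 6 called. Astrocyte markers summed to 753 to 823 in CT, 675 to 709 in WT_ST and 689 to 795 in KO_ST, with 2 of 8 (Aqp4 and Slc1a3) called lower in WT_ST and 0 in KO_ST. Of these 8, 2 had a log2 difference above 0 in WT_ST against CT and 3 in KO_ST against CT, with 0 called higher. The part of these differences in the Adra1b result was not tested.

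As a description chosen after seeing the data, the mean level of each of the 2 lists with the highest r was subtracted in turn from Adra1b in each mouse. The remainder equals the Adra1b difference less that of the list, and both were already known, so it tests nothing. With the pan-neuronal list subtracted, the difference that was left was 0.14 in WT_ST against CT and 0.26 in KO_ST against CT on the log2 scale, against 0.26 and 0.40 before. With the GABAergic list subtracted it was 0.12 and 0.21. The pan-neuronal list itself differed by 0.12 and 0.15, and the GABAergic list by 0.14 and 0.19.

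Genes on both sides of the receptors were then examined in 6 lists of 53 genes, of which 50 were tested. In WT_ST against CT and in KO_ST against WT_ST, 0 of 50 were called in limma, and in KO_ST against CT 1 was, next to 2.47%, 2% and 3.56% of all tested genes. The exception was Kcnj3, a subunit of the GIRK potassium channels that Gi-coupled receptors open, which was 0.27 higher in KO_ST than in CT (standard error 0.0694, adjusted p = 0.470 in limma). Its log2 difference was 0.13 in WT_ST against CT and 0.13 in KO_ST against WT_ST (adjusted p = 0.635 and 0.833 in limma), below the fold of 1.2 in both.

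Noradrenaline synthesis and storage was represented by Th, the first enzyme of catecholamine synthesis, and Ddc, the other 2 genes of that list being below the filter. Th averaged 1.65 FPKM, with log2 differences from CT of -0.09 in WT_ST and -0.13 in KO_ST (adjusted p = 0.784 and 0.753 in limma). Ddc, the next enzyme of the pathway, averaged 1.62 FPKM and differed by 0.12 and 0.11 (adjusted p = 0.763 and 0.760 in limma), opposite in sign to Th. The 5 tested genes of uptake and breakdown had a median difference of 0.07 in WT_ST and 0.10 in KO_ST relative to CT.

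In the arms that carry the signal onwards, median log2 differences in WT_ST against CT were 0.02 over 9 genes of the Gq arm, 0.07 over 10 of the Gi arm and 0.03 over 15 of the Gs arm. In KO_ST against CT they were 0.05, 0.08 and 0.06, beside 0.0024 over all tested genes. The most abundant gene of each arm was Prkcb, a protein kinase C, at 161 FPKM, Gnao1, the G protein alpha subunit o, at 211, and Gnas, the Gs alpha subunit, at 629. In KO_ST against CT these differed by 0.10, 0.0091 and 0.05. Gs arm genes summed to 1785 to 1886 in CT, 1898 to 2009 in WT_ST and 1921 to 1990 in KO_ST, without overlap between CT and either stressed group. On the mean log2 level of the list they overlapped, with CT replicate 1 at 5.823 above WT_ST replicate 1 at 5.822 and KO_ST replicate 3 at 5.814. The Gi arm did the reverse. Its sums overlapped, at 520 to 545 in CT, 544 to 566 in WT_ST and 538 to 558 in KO_ST, and its mean log2 level did not overlap CT, at 5.102 to 5.144, 5.177 to 5.209 and 5.163 to 5.224. Genes of desensitization, the receptor kinases, arrestins and RGS proteins that end the signal, had medians of -0.02 and -0.04 in WT_ST and KO_ST against CT. Rgs4, the highest at 180 FPKM, differed by 0.02 and 0.15.

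**Figure D4:**
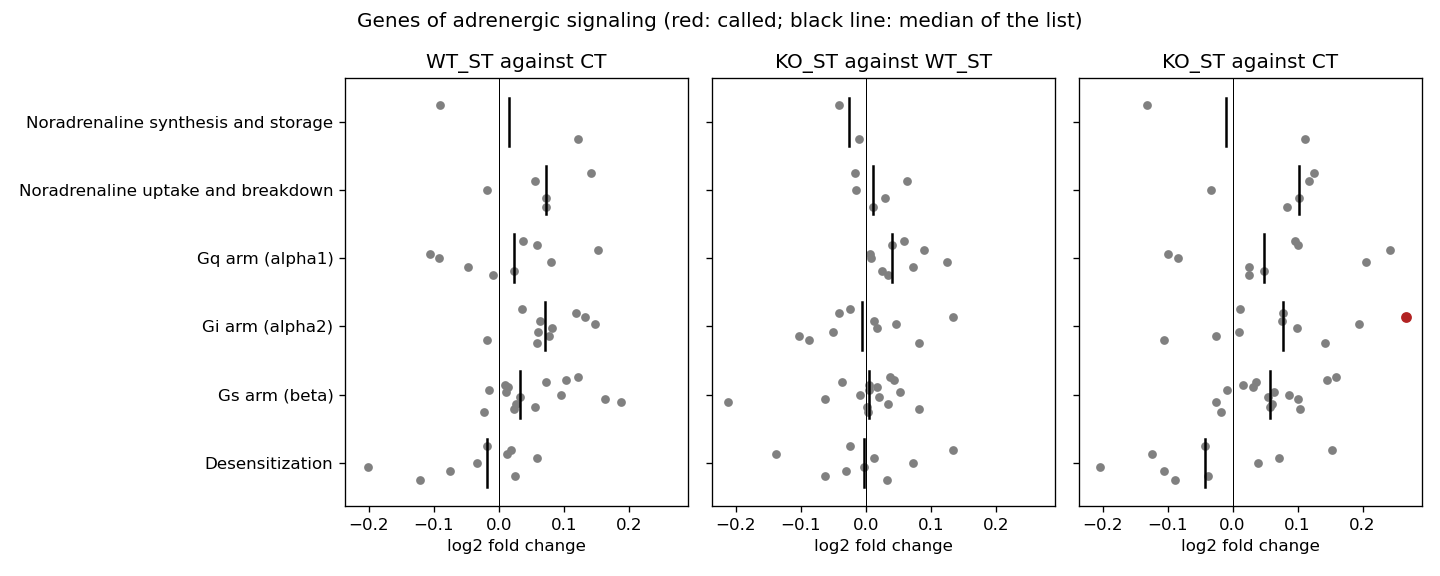
Log2 fold change of the 50 tested genes of adrenergic signaling (x axis) in 6 lists (y axis) for each comparison, with 1 dot per gene and a line at the median. Kcnj3, at 0.27 in KO_ST against CT, is the single called gene.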

How the data were processed

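Total RNA of mPFC was sequenced from stranded mRNA libraries, 1 library per mouse. Per the labels and the study's methods, the authors aligned reads to GRCm38 with HISAT2 2.1.0 (Bowtie2 2.3.4.1) and quantified RefSeq genes with StringTie 1.3.4d. They deposited raw read counts and FPKM for each gene. Here FPKM was taken as log2 with a pseudocount of 1, quantile normalized over 9 mice and tested in limma 3.58.1 (R 4.3.3; mean-variance trend; mice of the 2 groups only), with Benjamini-Hochberg adjustment over 14370 genes. The deposited read counts were used for the filter and in edgeR 4.0.16 and DESeq2 1.42.0 as alternatives. Scripts were tested on simulated data. No 2 libraries agreed within sampling noise (chi-square per degree of freedom at least 18.7). Intervals are limma's 95% intervals. Permutation tests of correlations used all orders of the 9 mice, without regard to group. Gene positions come from RefSeq on GRCm38, exon counts from GENCODE M21. Figures used matplotlib 3.10.9 in Python 3.11.15.

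The members, marker lists and pathway lists were chosen with earlier results of these data known. Named genes are the receptors, Fkbp5, the called and the most abundant genes of each pathway list, and the 3 genes most like each tested receptor. Ddc was named in addition, as the other tested gene of the list that holds Th. The most abundant gene of 1 list is not reported here. Markers were named as lists, and members that were called or define a cell type were named after their values were seen.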

Additional observations from a re-analysis of the deposited data

How the results depend on the processing

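The number of called receptors between CT and WT_ST was 1. It was 0 without quantile normalization and 0 to 1 with 1 mouse left out, and the loss in each case was Adra1b. It stayed at 1 in KO_ST against CT and in the F test and at 0 in KO_ST against WT_ST under each alternative run. For these changes the cause was not tested. Of all genes, 355 were called between CT and WT_ST, against 544 with a pseudocount of 0.1, 535 with edgeR and 552 with DESeq2 (46.8% higher in WT_ST in limma, 33.1% in edgeR and 34.2% in DESeq2, and 34.1% without quantile normalization, which also lowered the share in KO_ST against CT from 43.2% to 28.5%), and 279 to 542 with 1 mouse left out. Without CT replicate 3 the share of higher calls rose to 59.6% in WT_ST and 53.5% in KO_ST, and 17 rather than 5 genes passed adjustment in WT_ST against CT in limma. Without CT replicate 1 the share was 51.4% in KO_ST. Between WT_ST and KO_ST 287 were called, 445 with a pseudocount of 0.1 and 244 to 477 with 1 mouse left out. Replicate numbers did not pair the mice: deviations of same-numbered mice correlated at a mean of -0.0101. With the replicate block, Adra1b differed by 0.26 and 0.40 from CT in WT_ST and KO_ST, and the block changed no call of a receptor. The subtraction of neuronal lists, chosen after seeing the data, is a description with no test.

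Differences of receptors that were not called changed sign in some fits, including the 0.14 of Adra1d in WT_ST against CT, which was -0.0013 without CT replicate 3. Adra2a in KO_ST against WT_ST was 0.0027 in edgeR and 0.0063 in DESeq2. With 1 mouse left out it ran from -0.080 to 0.039. In WT_ST against CT, Adra1a ran from -0.30 to 0.027, Adra1d from -0.0013 to 0.25, Adra2c from -0.038 to 0.035 and Adrb1 from -0.13 to 0.057. In KO_ST against WT_ST, Adra1a ran from -0.014 to 0.25, Adra2c from -0.15 to 0.020 and Adrb1 from -0.032 to 0.11. In KO_ST against CT, Adra1a ran from -0.21 to 0.14, Adra1d from -0.10 to 0.15, Adra2c from -0.15 to 0.011 and Adrb1 from -0.089 to 0.093. None of these was called. Depth limits Adra2b, with at most 12 reads per mouse.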
